A study of Mus musculus with 3 samples.

Results

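The respiratory chain genes described here are the 13 protein genes of the mitochondrial genome and the nuclear genes whose symbols name subunits of complexes I to V. Members were taken by symbol: mt-Nd, mt-Co, mt-Atp and mt-Cytb, Nduf followed by a, b, c, s or v and a number, Cox4 to Cox8, Atp5, Uqcr, and Sdha to Sdhd. Of 28693 listed genes, 97 symbols matched, and 94 had at least 20 UMIs over the kept cells of all libraries. These 94 are 13 mitochondrially encoded (mt-encoded) and 81 nuclear genes, and each of them had at least 1 UMI in every library. Cox8b, with 21 UMIs, was just inside that minimum. Cox6a2, with 5, was just outside it, and Cox7b2 and Cox8c had 0. The pattern goes by name, so it takes in a few genes that are no subunits of the complex they are named for: Ndufa4 is now known as a subunit of complex IV, Cox7a2l helps to join complexes into supercomplexes, and Atp5s and Atp5sl are not parts of ATP synthase itself. They were kept, under the complex of their name. Many nuclear members have processed pseudogenes, and the labels do not say how reads shared with such copies were counted.

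The respiratory chain is made by 2 genomes. Complexes I, III, IV and V join subunits encoded in the mitochondrion to subunits encoded in the nucleus and imported, whereas complex II (Sdha to Sdhd) is wholly nuclear. Complexes I to IV pass electrons to oxygen, and complexes I, III and IV, but not II, pump protons. Complex V, the ATP synthase, uses the proton gradient to make ATP. In skin, keratinocytes and fibroblasts are known for a strong use of glycolysis, and the sebocytes of the sebaceous gland for an intense synthesis of lipids.

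Dermal cells of abdominal skin came from C57BL/6 mice that were 8 to 12 weeks old. One library was made from non-pregnant mice (NP), one at day 16 of gestation (dpc16) and one 42 days post partum (dpp42). All carried Col1a2creERT2, a Cre recombinase under a collagen promoter that tamoxifen switches on, and R26H2B EGFP, a nuclear EGFP reporter. The dpc16 and dpp42 mice had tamoxifen during pregnancy, while the NP control had it for 3 days and was harvested 48 days later. How many mice went into each library is not given in the labels. There is 1 library per group, so no difference could be tested: every interval below is a 95% interval for counting error only, and a difference between 2 libraries is not shown to be one between the conditions.

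A UMI (unique molecular identifier) marks 1 captured transcript molecule of a 3′ library. Levels are UMIs summed over the cells of a class, per 1000000 UMIs of the class (CPM) or in percent, and are not divided by gene length. Kept cells had at least 200 genes and at most 10% of their UMIs from mitochondrial genes, which left 1289, 3652 and 1081 cells in NP, dpc16 and dpp42, with medians of 3119, 4300.5 and 3252 UMIs. The limit of 10% bears directly on the mt-encoded members: it left out 3.01% of NP barcodes, 11.1% of dpc16 barcodes and 9.36% of dpp42 barcodes. Between 1 and 6 barcodes were shared by any 2 libraries, and doublets were not removed. Cells were clustered without the members and without any other mitochondrial gene, so that class names do not rest on the values reported. The keratinocyte-like class held 849, 1025 and 556 cells, the sebocyte-like class 107, 319 and 108, and the fibroblast-like class 115, 1156 and 123. These 3 classes had at least 50 cells in each library. Their listed markers followed the names, apart from Krt79 of the keratinocyte list. In NP the collagen gene Col1a1 was at 10057 CPM in fibroblast-like and 22.1 CPM in all other cells. The suprabasal keratin gene Krt10 was at 14298 CPM in its class and 448 CPM elsewhere, and the fatty acid desaturase gene Scd1 at 14298 and 217 CPM. Krt79 was lower in keratinocyte-like than in other cells of NP (219 and 587 CPM) and dpp42 (234 and 582), and higher in dpc16 (770 and 440). The labels call the cells dermal, yet keratinocyte-like cells were the most numerous class in NP and dpp42.

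Sequences are shown for 5 members. The first pair are the mt-encoded genes that were lower in dpc16 than in NP in all 3 of these classes, mt-Atp8 (chrM:7766-7969) and mt-Nd4l (chrM:9877-10173), both on the plus strand of GRCm38 and taken from the GENCODE M21 transcripts. Capitals mark the bases that the gene shares with its neighbour on the same strand: the last 43 of mt-Atp8 lie in mt-Atp6, and the last 7 of mt-Nd4l lie in mt-Nd4.
mt-Atp8: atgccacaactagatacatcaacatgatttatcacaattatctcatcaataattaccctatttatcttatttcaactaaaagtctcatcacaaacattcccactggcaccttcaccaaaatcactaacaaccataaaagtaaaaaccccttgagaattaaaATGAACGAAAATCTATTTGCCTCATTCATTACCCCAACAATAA
mt-Nd4l: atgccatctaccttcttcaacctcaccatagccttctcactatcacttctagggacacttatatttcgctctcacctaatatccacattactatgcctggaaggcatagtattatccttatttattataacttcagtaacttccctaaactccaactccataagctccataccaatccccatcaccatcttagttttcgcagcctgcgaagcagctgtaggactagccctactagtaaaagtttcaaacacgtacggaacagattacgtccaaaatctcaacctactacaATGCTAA
The others are the 100 bases just before the start of 3 nuclear members, read 5′ to 3′ on the minus strand from RefSeq promoters of GRCm38.p6: Atp5k (chr5:108434400-108434499), Atp5g2 (chr15:102671048-102671147) and Uqcr11 (chr10:80406822-80406921). Atp5k and Uqcr11 were lower in dpc16 keratinocyte-like cells by the size rule given below, as were 22.2% of all measured genes. Scaled by median of ratios, both fell short of that rule. Atp5g2, a paralogue of genes that were lower, was at a like level. Capitals mark the letters GCGCATGCG on either strand, read by nuclear respiratory factor 1, or CCGGAAGT, a core read by ETS factors such as GABP. In Atp5k and Atp5g2 a match on each strand overlaps the other, and the last 5 capitals of Uqcr11 begin a match that runs past the start.
Atp5k: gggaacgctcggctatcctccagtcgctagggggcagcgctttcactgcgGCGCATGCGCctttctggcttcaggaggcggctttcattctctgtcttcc
Atp5g2: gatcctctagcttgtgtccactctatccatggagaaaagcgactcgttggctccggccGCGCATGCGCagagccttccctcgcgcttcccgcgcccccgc
Uqcr11: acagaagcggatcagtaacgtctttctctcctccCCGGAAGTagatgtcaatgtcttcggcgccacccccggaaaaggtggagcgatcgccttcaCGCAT
Promoter windows of 300 bases (250 before to 50 after the start) were found for 68 of the 81 nuclear members and were searched on both strands. GCGCATGCG was in 8 of them, or 11.8%, against 1.95% of the windows of 27025 genes. They belong to Ndufa8, Atp5k, Cox6a1, Uqcr11, Atp5l, Uqcrc1, Atp5g2 and Ndufa11. CCGGAAGT was in 5, or 7.35%, against 4.31% of all genes. AAGATGGCG, read by YY1, was in 8, or 11.8%, against 1.64% of all genes, among them Ndufa9, Ndufc1 and Ndufs7. None of the 3 motifs contains another, and a match describes the letters of a window and no binding.

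Sebocyte-like cells held the highest level of the nuclear chain, in every library. The 81 nuclear members together took 5.47, 5.12 and 5.16% of all UMIs in sebocyte-like cells of NP, dpc16 and dpp42. Keratinocyte-like cells were at 2.58, 2.27 and 2.58%, and fibroblast-like cells at 1.97, 1.87 and 2.04%. Sebocyte-like cells stood above both other classes in each library, and keratinocyte-like above fibroblast-like cells. Sebocyte-like cells had 2.78, 2.73 and 2.53 times the nuclear level of fibroblast-like cells and 2.12, 2.26 and 2.0 times that of keratinocyte-like cells. The NP ratio to fibroblast-like cells had an interval of 2.71 to 2.85. In dpc16, blood endothelial-like cells were at 1.83%, lymphatic endothelial-like cells at 2.38%, Langerhans and dendritic-like cells at 2.05% and T, NK and innate lymphoid-like cells at 2.32%. The 63 macrophage-like cells, all from dpc16, were at 1.96%, so that these smaller classes lay near keratinocyte-like and fibroblast-like cells.

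The difference between classes ran through the whole list rather than through a few genes. A member counted as higher or lower when its ratio was at least 1.5 either way with an interval that excludes 1. Sebocyte-like over fibroblast-like cells, 70 of the 76 measured nuclear members were higher and 1 was lower in NP, where 26.3% of all measured genes were higher and 27.2% lower. In dpc16 70 of 78 were higher and 2 lower (31.1 and 36.4% of all genes), and in dpp42 66 of 77 were higher and 2 lower (23.4 and 26.6% of all genes). The members' median log2 ratios were 1.54, 1.53 and 1.48, against 0.00, -0.06 and -0.04 over all genes. Over keratinocyte-like cells, 66 of 77 nuclear members were higher and 1 lower in NP (18.2 and 30.7% of all genes), 73 of 77 and 1 in dpc16 (24 and 33.5%), and 66 of 77 and 1 in dpp42 (19.5 and 30.9%). Their medians were 1.15, 1.21 and 1.00, against -0.26, -0.14 and -0.22 over all genes.

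Each complex took part. In NP, complex I (nuclear subunits of the NADH dehydrogenase) summed to 15386 CPM in sebocyte-like, 8195 CPM in keratinocyte-like and 5631 CPM in fibroblast-like cells. Complex II, the succinate dehydrogenase, summed to 519, 299 and 265 CPM in the same order. Complex III, the cytochrome bc1 complex, summed to 7027, 3171 and 2322 CPM. Complex IV, the cytochrome c oxidase, summed to 16190, 7087 and 6516 CPM. Complex V summed to 15551, 7047 and 4933 CPM. The order of the 3 classes was therefore the same in all 5 complexes, and complex II had the smallest difference between sebocyte-like and fibroblast-like cells. Among the 4 classes with at least 20 NP cells, 75 of the 81 nuclear members were highest in sebocyte-like cells. The 6 exceptions were Cox4i2, Atp5sl and Cox7a2l, highest in blood endothelial-like cells, Cox6b2 and Cox7a1, highest in fibroblast-like cells, and Ndufa4l2, highest in keratinocyte-like cells. With 9 classes in dpc16 and 5 in dpp42 the counts were 68 and 73 of 81.

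Within the sebocyte-like class the level differed between its 3 clusters. In NP the nuclear members took 5.38% of the UMIs of cluster 7 (led by Bex1 and Plin2), 6.01% of cluster 8 (Cers4, Elovl6 and Cidea) and 4.80% of cluster 20 (Cyp2g1, Elovl4 and Scd3). The mt-encoded members took 5.48, 5.87 and 7.25% in the same order. In NP cluster 20 thus had the lowest nuclear and the highest mt-encoded share of the 3. In dpc16 and dpp42 cluster 7 had the lowest nuclear share, at 4.47 and 4.72%, against 5.23 and 4.90% in cluster 20. Cluster 8 was at 5.48 and 5.57% in these 2 libraries. The cycling keratinocyte-like cluster 4 was above its class, at 3.40, 2.87 and 3.37% nuclear in NP, dpc16 and dpp42.

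Mural-like cells, named for the contractile cells around vessels, also stood high, on few cells of unlike clusters. Their nuclear level was 4.66, 3.40 and 4.90% and their mt-encoded level 5.94, 6.30 and 6.08% in NP, dpc16 and dpp42, from 5, 30 and 9 cells. Cluster 14, led by Acta2, Myl9 and Myh11, was at 5.17, 4.05 and 5.52% nuclear, on 3, 8 and 5 cells. With the mural and erythroid lists set aside, its best list was skeletal muscle. Cluster 16, led by Rgs5, was at 3.24, 3.08 and 3.31%, on 2, 22 and 4 cells. The dpc16 value of the class thus rests mostly on cluster 16. In dpc16 they had 1.81 times the nuclear and 1.85 times the mt-encoded level of fibroblast-like cells. There 52 of 77 measured nuclear members were higher and 0 lower (16.7 and 7.6% of all genes), as were 11 of 12 measured mt-encoded members. Against keratinocyte-like cells 38 of 76 nuclear members were higher and 0 lower (18 and 9.8% of all genes). The actin gene Acta2 marked these cells at 11920 CPM in dpc16 against 24.6 CPM in all others, and Rgs5 at 2560 against 7.66 CPM. The pericyte markers Kcnj8, Abcc9 and Steap4 were at 0 in NP and dpp42, where the class held few cells. In dpc16, Kcnj8 and Steap4 were at 7.27 and 21.8 CPM, below the 9.14 and 34.3 CPM of all others. Abcc9 was at 14.5 against 5.67 CPM there.

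Blood endothelial-like cells were at the other end. Over keratinocyte-like cells, 0 of 77 measured nuclear members were higher and 38 lower in NP (16.5 and 10.1% of all genes). In dpc16 2 of 76 were higher and 26 lower (27.1 and 21.9%), and in dpp42 1 of 77 was higher and 47 lower (21.4 and 18.9%). The share that was lower exceeded that of all genes in each library. Fibroblast-like cells were low there too, at 0.762, 0.827 and 0.792 times the nuclear sum of keratinocyte-like cells. Over fibroblast-like cells, blood endothelial-like cells had 0.902, 0.977 and 0.809 times the nuclear sum. There 2 of 71, 5 of 78 and 2 of 73 measured members were higher and 9, 13 and 20 lower. Of all genes, 569 of 3226, 2253 of 8215 and 997 of 4474 were higher and 556, 1582 and 947 lower.

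**Figure D1:**
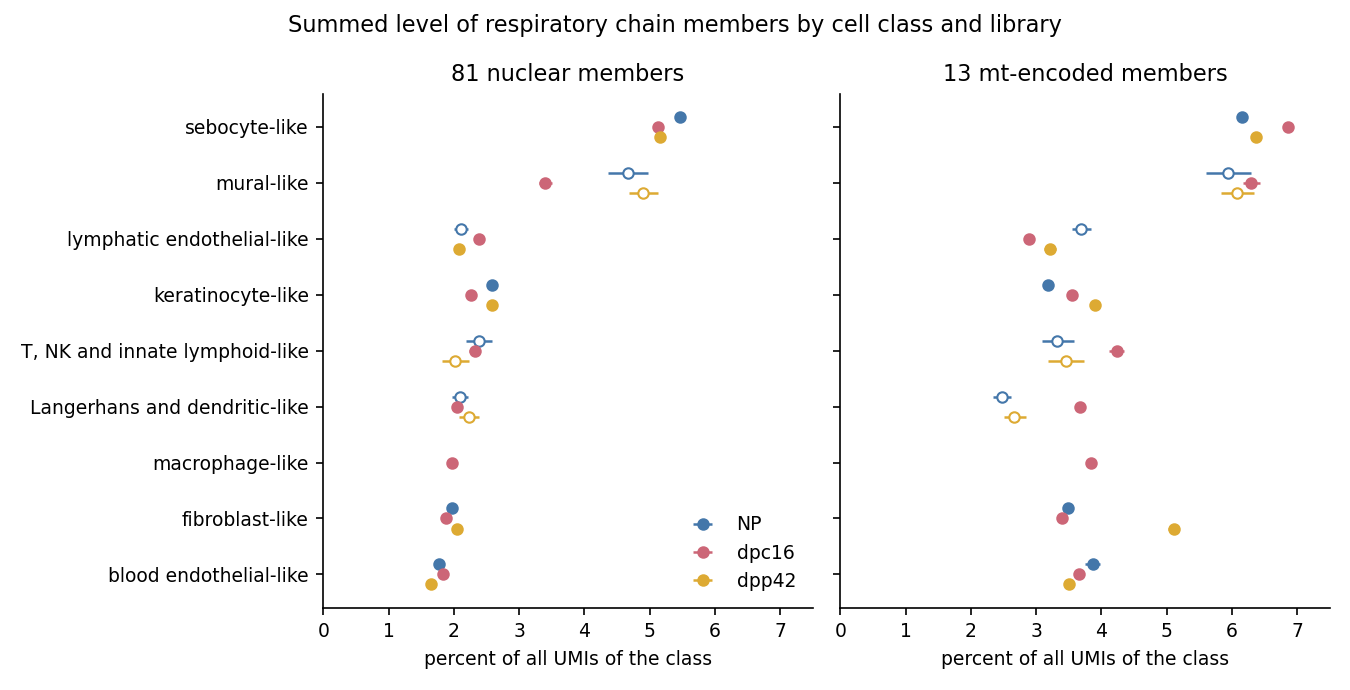
Percent of all UMIs taken by the 81 nuclear members (one panel) and the 13 mt-encoded members (the other) in each cell class, with 1 point per library, lines for 95% Poisson intervals and open symbols for classes of under 20 cells. Sebocyte-like cells lie at 5.12 to 5.47% nuclear, above keratinocyte-like (2.27 to 2.58%) and fibroblast-like cells (1.87 to 2.04%), and fibroblast-like cells of dpp42 lie at 5.11% mt-encoded against 3.49 and 3.40% in NP and dpc16.

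The mt-encoded members followed another pattern over libraries than over classes. They took 3.18, 3.56 and 3.90% of UMIs in keratinocyte-like cells of NP, dpc16 and dpp42, and 6.15, 6.87 and 6.38% in sebocyte-like cells. Fibroblast-like cells were at 3.49% (interval 3.43 to 3.56), 3.40% (3.39 to 3.42) and 5.11% (5.03 to 5.18). Keratinocyte-like cells had their lowest value in NP and their highest in dpp42, and fibroblast-like cells of dpp42 stood apart from both other libraries. Sebocyte-like cells had 1.93, 1.93 and 1.63 times the mt-encoded level of keratinocyte-like cells and 1.76, 2.02 and 1.2 times that of fibroblast-like cells. Their lead over fibroblast-like cells was thus smallest in dpp42. There 1 of 13 mt-encoded members was higher and 2 lower in sebocyte-like than in fibroblast-like cells, against 8 of 13 and 0 in NP and 8 of 12 and 0 in dpc16. Over clusters the mt-encoded and nuclear shares had Pearson correlations of 0.79, 0.68 and 0.74 (n = 17, 28 and 17 clusters of a library), which share library, depth and total. Without the sebocyte-like clusters these were 0.26, 0.08 and 0.25 (n = 14, 25 and 14).

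The ratio of mt-encoded to nuclear UMIs was lowest in NP in keratinocyte-like, sebocyte-like and fibroblast-like cells, but not in endothelial-like cells. In fibroblast-like cells NP was within counting error of dpc16. In keratinocyte-like cells it was 1.23 in NP, 1.57 in dpc16 and 1.51 in dpp42. In sebocyte-like cells it was 1.12, 1.34 and 1.24, and in fibroblast-like cells 1.78, 1.82 and 2.50. Both comparisons share the NP library, so they are not independent of each other. Against NP, the ratio was 1.27 times as high in dpc16 (interval 1.26 to 1.29) and 1.23 times in dpp42 (1.21 to 1.24) for keratinocyte-like cells, and 1.19 times (1.17 to 1.21) and 1.10 times (1.08 to 1.12) for sebocyte-like cells. In fibroblast-like cells it was 1.02 times as high in dpc16, with an interval of 0.990 to 1.05 that holds 1, and 1.41 times in dpp42 (1.35 to 1.47). Lymphatic endothelial-like cells, 19 in NP, were at 0.689 times NP in dpc16 (0.644 to 0.738) and 0.884 times in dpp42 (0.817 to 0.957). Blood endothelial-like cells were at 0.917 times in dpc16 (0.867 to 0.970), with dpp42 within counting error of NP. The dpc16 ratio was 1.51 times NP in Langerhans and dendritic-like and 1.45 times in mural-like cells, on 13 and 5 NP cells. In T, NK and innate lymphoid-like cells it was 1.31 times, on 8.

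The numerator and the denominator moved differently. In dpc16 keratinocyte-like cells the mt-encoded sum was 1.12 times and the nuclear sum 0.879 times that of NP. In dpp42 keratinocyte-like cells the mt-encoded sum was 1.23 times and the nuclear sum 0.999 times that of NP. In dpp42 fibroblast-like cells the mt-encoded sum was 1.46 times (interval 1.43 to 1.5) and the nuclear sum 1.04 times that of NP. In dpp42 sebocyte-like cells the mt-encoded sum was 1.04 times and the nuclear sum 0.943 times that of NP. The dpp42 ratio thus moved mainly with the mt-encoded sum in keratinocyte-like and fibroblast-like cells, and with both sums in sebocyte-like cells. By cluster, the mt-encoded level of dpp42 was above NP in 8 of 8 keratinocyte-like clusters with at least 10 cells in each library (1.04 to 1.37 times) and in 4 of 4 fibroblast-like clusters (1.16 to 1.85 times). The nuclear level in those clusters was 0.905 to 1.04 and 0.711 to 1.23 times that of NP. In sebocyte-like clusters the mt-encoded level of dpp42 was above NP in 1 of 3. For dpc16 the clusters were less alike. The mt-encoded level was above NP in 6 of 8 keratinocyte-like clusters, but 0.911 and 0.909 times that of NP in clusters 1 and 5, the largest of the class in NP. The ratio of ratios was above 1 in 7 of 8 and was 0.885 (interval 0.858 to 0.913) in cluster 5, against 1.27 for the class. The mt-encoded level of dpc16 was above NP in 1 of 4 fibroblast-like and 3 of 3 sebocyte-like clusters.

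The limit on mitochondrial UMIs moved these values. With a limit of 5% in place of 10%, the ratio of ratios was 1.16 and 1.10 for keratinocyte-like cells of dpc16 and dpp42 and 1.28 for fibroblast-like cells of dpp42. With no limit it was 1.39, 1.31 and 1.34 in the same order. The direction was the same throughout. Of the over-limit barcodes, 178 of 458 in dpc16 were nearest to sebocyte-like cells, as were 34 of 112 in dpp42 and 8 of 40 in NP. Of the others in dpc16, 135 were nearest to clusters without a class and 68 to keratinocyte-like cells. With no limit, the mt-encoded level of sebocyte-like cells was 6.55, 10.1 and 8.03%, so the kept sebocyte-like cells are those on the low side of the limit. Their mt-to-nuclear ratio with no limit was 1.2, 2.09 and 1.61, against 1.12, 1.34 and 1.24 with the limit of 10%, a larger shift than in the other two classes.

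Other values moved with the libraries. Heat shock genes summed to 7182, 14654 and 8122 CPM in keratinocyte-like cells of NP, dpc16 and dpp42. Of 12 measured there, 9 were higher and 0 lower in dpc16 (8.22 and 22.2% of all genes). In fibroblast-like cells they summed to 8659, 14320 and 6631 CPM, with 6 of 12 higher in dpc16 (6.73% of all genes). RNAs retained in the nucleus summed to 50953, 45952 and 37506 CPM in fibroblast-like cells and to 20943, 18866 and 18230 CPM in keratinocyte-like cells, lowest in dpp42 in both. Immediate early genes summed to 10635, 15108 and 8370 CPM in keratinocyte-like cells and to 10176, 10582 and 8018 CPM in fibroblast-like cells. In dpc16 keratinocyte-like cells 10 of 16 were higher and 0 lower (8.22 and 22.2% of all genes). Both classes were also filled by different clusters. Keratinocyte-like clusters 1, 5 and 9 held 226, 197 and 136 of 849 cells in NP but 130, 110 and 70 of 1025 in dpc16, where cluster 22 held 178 cells against 32 in NP. With shared clusters weighted equally, the mt-to-nuclear ratio of dpc16 keratinocyte-like cells was 1.35 times that of NP. In the fibroblast-like class, cluster 3 held 51 of 115 cells in NP, clusters 3, 30 and 17 held 361, 357 and 264 of 1156 in dpc16, and clusters 23, 17 and 3 held 54, 28 and 20 of 123 in dpp42. With the clusters that both libraries hold weighted equally, the mt-to-nuclear ratio of dpp42 fibroblast-like cells was 1.38 times that of NP. The part of heat shock, immediate early genes, nuclear RNA and depth in the results was not tested.

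Cluster 21, a small keratinocyte-like cluster led by Nppc and Sgk1 with 35, 57 and 17 cells, departed most from its class. In dpc16 its mt-encoded members took 5.80% and its nuclear members 0.756% of UMIs. Against NP, these were 1.71 and 0.487 times as high, which gives a ratio of ratios of 3.51 (interval 3.30 to 3.74). Without this cluster, which was chosen after its values were seen, the ratio of ratios of dpc16 keratinocyte-like cells was 1.24.

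The 13 mt-encoded genes did not move as one. The 13 come from long transcripts of both strands that are cut into single messages, except that mt-Atp8 and mt-Atp6 share 1 message and mt-Nd4l and mt-Nd4 another. In NP, dpc16 and dpp42 keratinocyte-like cells, mt-Atp8 was at 570, 68.4 and 530 CPM, whereas mt-Atp6 was at 8198, 9495 and 9432 CPM. mt-Atp8 was low in dpc16 alone, and its partner on the same message was not. The dpc16 ratio to NP was 0.120 (interval 0.108 to 0.133) for mt-Atp8.

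The other shared message showed the same split. mt-Nd4l was at 383, 79 and 522 CPM in keratinocyte-like cells and mt-Nd4 at 2111, 2103 and 2490 CPM. The dpc16 ratio to NP was 0.206 (0.187 to 0.228) for mt-Nd4l, and mt-Nd4 was at nearly equal levels in NP and dpc16. In sebocyte-like cells mt-Atp8 was at 771, 98.3 and 638 CPM and mt-Nd4l at 598, 126 and 674 CPM. In fibroblast-like cells mt-Atp8 was at 441, 73.6 and 486 CPM, with a dpc16 ratio of 0.167 (0.138 to 0.203), and mt-Nd4l at 522, 104 and 991 CPM. In all 3 classes the dpc16 value lay far below both others.

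Of the other mt-encoded genes of complex I, mt-Nd5, mt-Nd3 and mt-Nd6 were also low in dpc16. mt-Nd5 was at 393, 269 and 477 CPM in keratinocyte-like, 687, 424 and 646 CPM in sebocyte-like and 385, 238 and 542 CPM in fibroblast-like cells, lowest in dpc16 each time. mt-Nd3 was at 242, 158 and 308 CPM in keratinocyte-like and 307, 167 and 483 CPM in fibroblast-like cells. It counted as lower in dpc16 in these 2 of the 3 classes, but not in sebocyte-like cells. Its dpc16 level was above NP in 7 of 21 clusters. mt-Nd6, the 1 member on the other strand, was at 16.8, 1.48 and 28.3 CPM in keratinocyte-like cells, with a dpc16 ratio of 0.0883 (0.0406 to 0.172). Its low counts make it the least precise of the 13, and it was not measured in fibroblast-like cells. mt-Nd1 and mt-Nd2 were at 2232, 2187 and 2436 CPM and 1041, 900 and 1110 CPM in keratinocyte-like cells. In sebocyte-like cells mt-Nd1 was higher in dpc16, at 2088, 3316 and 2411 CPM (1.59 times NP).

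Of complex IV, the catalytic subunit gene mt-Co1 had its lowest level in NP in 2 of the 3 classes. mt-Co1 was at 4527, 6988 and 6867 CPM in keratinocyte-like cells, 1.54 times NP in dpc16 and 1.52 times in dpp42, both short of the size rule under a limit of 5% mitochondrial UMIs. mt-Co1 was lowest in NP also in fibroblast-like cells (4781, 5655 and 7575 CPM), but not in sebocyte-like cells (16810, 15168 and 15897 CPM). mt-Co3 was at 6307, 7112 and 7788 CPM in keratinocyte-like and 6731, 6653 and 10330 CPM in fibroblast-like cells. mt-Co2 was at 2921, 3033 and 3719 CPM and 3243, 3089 and 4712 CPM in the same classes. Of complex III, mt-Cytb was at 2841, 3159 and 3302 CPM in keratinocyte-like and 3598, 3498 and 5248 CPM in fibroblast-like cells.

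Counted by the size rule, 1 mt-encoded member was higher (mt-Co1) and 4 lower of 13 in dpc16 keratinocyte-like cells (8.22% of all measured genes were higher and 22.2% lower). In dpc16 sebocyte-like cells mt-Nd1 alone was higher and 4 were lower of 13 (6.43 and 11.4% of all genes), and in dpc16 fibroblast-like cells 0 were higher and 4 lower of 12 (6.73 and 17.8%). The mt-encoded members lower in all 3 classes were mt-Atp8 and mt-Nd4l, by the values above. In dpp42 the counts were 2 higher (mt-Co1 and mt-Nd6) and 0 lower of 13 in keratinocyte-like cells (4.82 and 3.01% of all genes) and 0 and 0 of 13 in sebocyte-like cells (3.38 and 2.02%).

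In dpp42 fibroblast-like cells 4 of 12 measured mt-encoded members were higher and 0 lower (8.75 and 6.35% of all genes). These were mt-Nd4l, at 1.90 times NP (interval 1.57 to 2.30), mt-Co1, at 1.58 times (1.49 to 1.69), mt-Nd3, at 1.57 times, and mt-Co3, at 1.53 times (1.45 to 1.62). All 12 lay above NP, with a median log2 ratio of 0.54 against 0.06 over all genes. The members short of the size rule were close to it: mt-Nd4 at 1.47, mt-Cytb at 1.46, mt-Co2 at 1.45, mt-Nd5 and mt-Atp6 at 1.41, and mt-Nd1 at 1.37 times NP. mt-Atp8 was the lowest at 1.10 times. mt-Co3 passed the rule only narrowly and fell short of it under 9 of the alternatives tried, mt-Nd3 under 6.

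**Figure D2:**
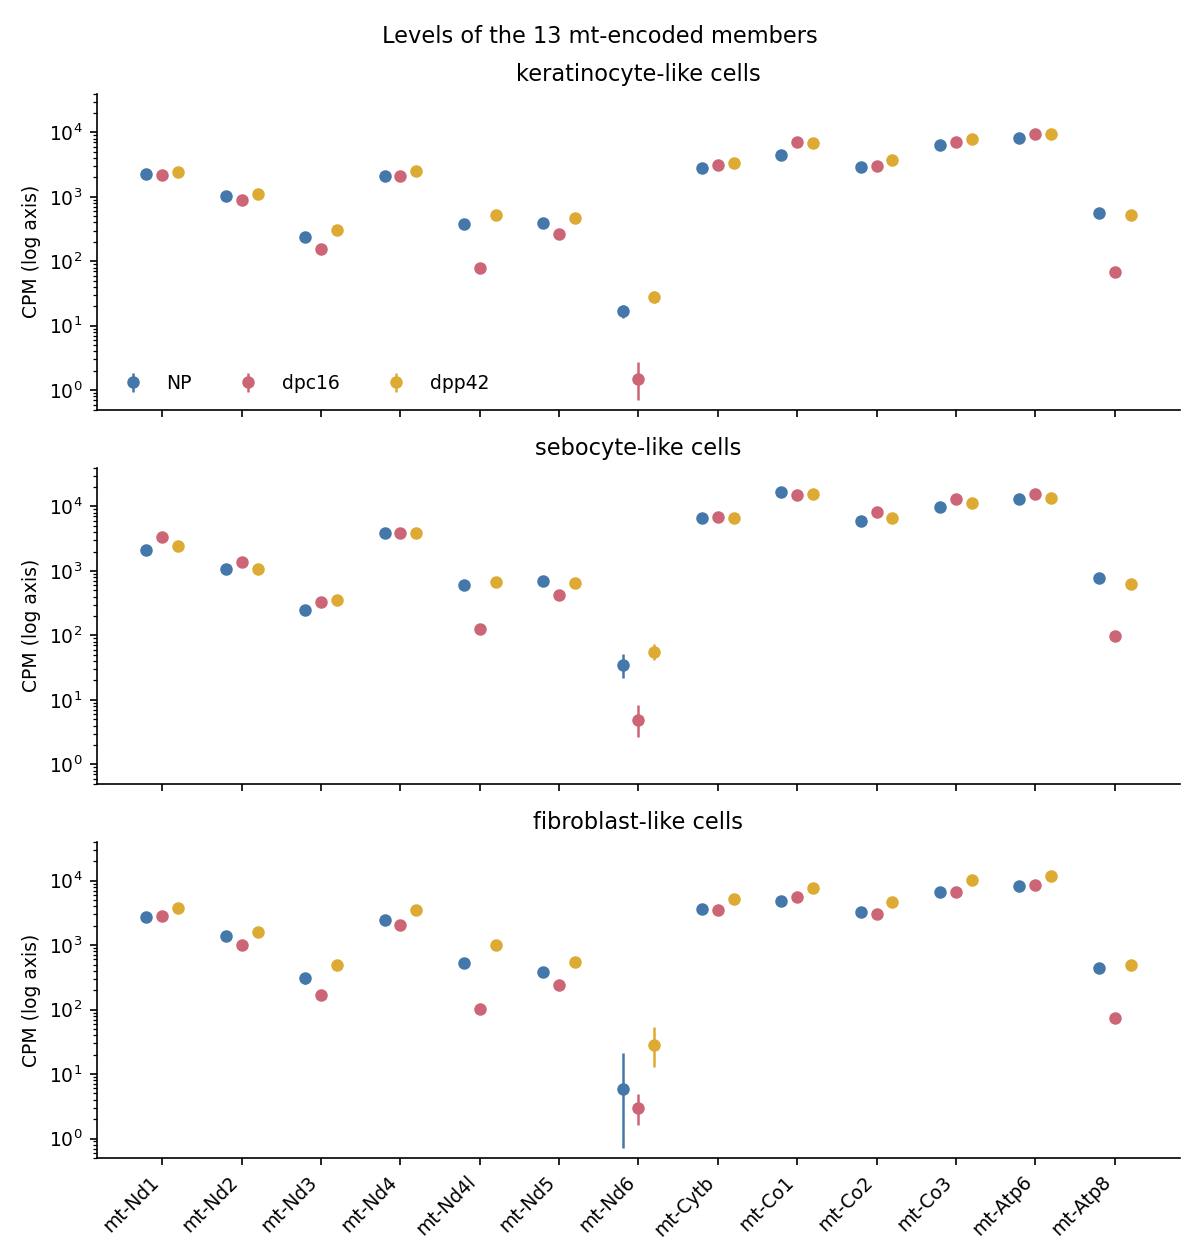
CPM (log axis) of the 13 mt-encoded members in keratinocyte-like, sebocyte-like and fibroblast-like cells, with 1 symbol per library and lines for 95% Poisson intervals. mt-Atp8 and mt-Nd4l drop in dpc16 in each class, to 68.4 and 79 CPM in keratinocyte-like cells, while mt-Atp6 and mt-Nd4 do not.

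The same genes were low in dpc16 across clusters. In each of 21 clusters with at least 10 cells per library, mt-Atp8 and mt-Nd4l were lower in dpc16 than in both other libraries. The dpc16 level was 0.0846 to 0.330 times that of NP for mt-Atp8 and 0.136 to 0.370 times for mt-Nd4l. mt-Nd5 was below both others in 20 of the 21 clusters, mt-Nd6 in 15 and mt-Nd3 in 14. In contrast mt-Atp6 was above NP in 16 of them. For dpp42, mt-Co1 was above NP in 19 clusters and mt-Co3, mt-Nd3 and mt-Nd4l each in 18. A drop of this kind, in all clusters of 1 library and in 1 of 2 genes on a shared message, cannot be told apart here from a property of the dpc16 library. Where on the shared messages the reads fell was not analysed here. Reads in the 43 or 7 shared bases fit 2 genes on the same strand, so the split of UMIs within each of these pairs is uncertain. With mt-Atp8, mt-Nd4l and mt-Nd6 left out, the ratio of ratios of dpc16 keratinocyte-like cells was 1.31, so these 3 did not raise it.

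**Figure D3:**
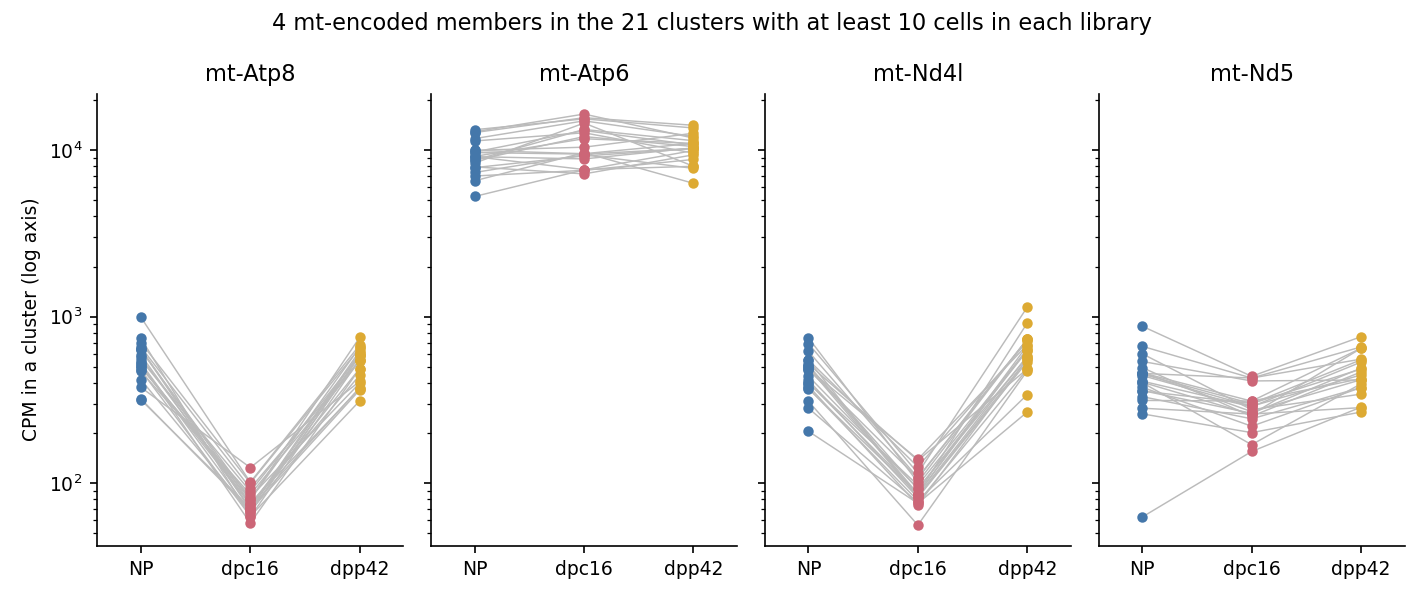
CPM of mt-Atp8, mt-Atp6, mt-Nd4l and mt-Nd5 in NP, dpc16 and dpp42, with 1 line for each of the 21 clusters that had at least 10 cells in every library. All 21 lines of mt-Atp8 and of mt-Nd4l dip in dpc16, as do 20 of mt-Nd5, whereas mt-Atp6 lies above NP in 16.

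The nuclear members were close to all other genes in most comparisons with NP. In dpc16 keratinocyte-like cells 1 of 76 measured members was higher and 8 lower, fewer in each direction than the shares of all genes given above. Their median log2 ratio was -0.23, against -0.18 over all genes, so that most of the shift was one that all genes had. Scaled by median of ratios, which removes that shift, the counts were 4 higher and 4 lower. In dpp42 keratinocyte-like cells 0 of 77 were higher and 0 lower, with a median of -0.03 against 0.00. In sebocyte-like cells 2 of 76 were higher and 3 lower in dpc16 (median -0.04 against -0.11), and 0 of 75 either way in dpp42 (-0.09 against 0.04).

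In fibroblast-like cells of dpc16 the nuclear members lay above the median of all genes. There 7 of 78 measured members were higher and 10 lower (6.73 and 17.8% of all genes), and their median was 0.05 against -0.29 over all genes. Scaled by median of ratios, 19 were higher and 4 lower, the nuclear sum was 1.12 times that of NP in place of 0.953, and the mt-encoded sum 1.15 times in place of 0.974. That scaling left several members named below as lower in dpc16 short of the size rule, in the same direction. In keratinocyte-like cells these were Ndufa1, Uqcr11, Atp5k and Ndufb3. In fibroblast-like cells they were Atp5g1, Atp5g3, Ndufc1, Uqcrb, Ndufb6 and Cox6c. In dpp42, 4 of 75 were higher and 1 lower, with medians of 0.05 and 0.06.

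By complex, the members past the size rule in dpc16 keratinocyte-like cells (8.22 and 22.2% of all genes) were 0 higher and 5 lower of 37 measured in complex I, 0 and 0 of 4 in II, 0 and 1 of 8 in III, 1 and 0 of 11 in IV, and 0 and 2 of 16 in V. Those in fibroblast-like cells were 4 and 4 of 37 in complex I, 0 and 0 of 4 in II, 1 and 1 of 8 in III, 1 and 3 of 14 in IV, and 1 and 2 of 15 in V. In dpp42 fibroblast-like cells (8.75 and 6.35% of all genes) the counts were 4 and 0 of 36 in complex I and 0 and 1 of 15 in V, with none in II, III and IV. The 4 of 36 lie near the share of all genes.

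Of complex I in keratinocyte-like cells, Ndufa4l2, a gene induced by low oxygen that resembles Ndufa4, was at 762 CPM in NP, 220 CPM in dpc16 and 996 CPM in dpp42, low in dpc16 alone. Its dpc16 ratio to NP was 0.289 (interval 0.271 to 0.307), whereas Ndufa4 was at 493, 416 and 469 CPM. Among the accessory subunits, which surround the catalytic core, Ndufa3 was at 148 CPM in dpc16 against 274 CPM in NP, Ndufb2 at 162 against 274, Ndufa1 at 127 against 211 and Ndufb3 at 133 against 206. The core subunit Ndufv1, which takes electrons from NADH, did not share this: it was at 1.35 times NP, short of the size rule.

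In dpc16 fibroblast-like cells the core subunit Ndufs7 was higher, at 117 against 77.5 CPM. Ndufb9, an accessory subunit, was higher too, at 181 against 113 CPM. Ndufa9 was at 30.6 CPM against 2.98 CPM, a ratio of 10.3 that rests on 1 UMI in NP and has an interval from 1.82 to 408. The lower members of complex I were Ndufb2 (145 against 271 CPM, 0.533 times), Ndufa1 (159 against 298, 0.534 times), Ndufc1 (143 against 235) and Ndufb6 (105 against 164). Ndufb2 and Ndufa1 were thus lower in dpc16 in both classes, and each was below both other libraries in 19 of the 21 clusters. Ndufa3 was so in 20. With clusters weighted equally, Ndufb9 fell short of the size rule.

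In dpp42 fibroblast-like cells, Ndufa4l2 was at 548 CPM against 221 CPM in NP, 2.49 times (interval 1.88 to 3.31), and at 287 CPM in dpc16. Ndufs1, the large iron-sulphur subunit, was at 59.2 against 11.9 CPM, on 19 and 4 UMIs (4.97 times, 1.65 to 20.1). Ndufb3 was at 171 against 95.4 CPM (1.80 times, 1.14 to 2.87) and Ndufa5 at 196 against 119 CPM (1.65 times, 1.09 to 2.51). Of these 4, Ndufa4l2 alone passed the size rule under every alternative tried. Ndufs1, Ndufb3 and Ndufa5 fell short of it under a limit of 5% mitochondrial UMIs.

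Complex II differed little. In keratinocyte-like cells of NP, dpc16 and dpp42, the flavoprotein gene Sdha was at 53.9, 51.8 and 57.5 CPM and the iron-sulphur subunit gene Sdhb at 111, 126 and 150 CPM. The membrane anchor genes Sdhc and Sdhd were at 81.4, 61.5 and 64.4 CPM and 52.4, 46.5 and 41.5 CPM. Sdhb, at 1.35 times NP in dpp42 (interval 1.19 to 1.54), had the highest and Sdhd, with Sdhc, among the lowest dpp42 ratios of the nuclear members of at least 50 CPM. None of the 4 passed the size rule there. In dpc16 sebocyte-like cells Sdhb was higher, at 254 against 161 CPM (1.58 times, 1.29 to 1.95). In dpp42 fibroblast-like cells Sdha was at 84.1 against 44.7 CPM, 1.88 times, with an interval of 0.966 to 3.81 that holds 1.

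Of complex III, Uqcr11 was lower in dpc16 keratinocyte-like cells, at 333 against 541 CPM (0.616 times). In dpc16 fibroblast-like cells the core subunit gene Uqcrc1 was higher (95.3 against 56.6 CPM, 1.68 times, 1.07 to 2.82, but short of the size rule with each cell weighted equally), and Uqcrb lower (347 against 584 CPM, 0.593 times). In dpp42 keratinocyte-like cells Uqcrc1 had the lowest ratio of all nuclear members of at least 50 CPM, at 144 against 203 CPM (0.708 times), short of the size rule.

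Complex IV is the complex with tissue-specific isoforms. The widespread isoform genes varied little: Cox4i1 was at 1195, 1407 and 1201 CPM in keratinocyte-like cells of NP, dpc16 and dpp42 and at 1025, 1136 and 941 CPM in fibroblast-like cells. Cox7a2 was at 653, 496 and 650 CPM in keratinocyte-like and 441, 301 and 405 CPM in fibroblast-like cells, lowest in dpc16 in both. Cox6c was at 1562 CPM in NP and 1020 CPM in dpc16 fibroblast-like cells, 0.653 times as high.

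The rarer isoform genes differed by class. Cox4i2, an isoform tied to oxygen sensing, was at 101, 30.3 and 62.0 CPM in blood endothelial-like cells and at 156, 138 and 105 CPM in mural-like cells, on 3 UMIs in NP. Fibroblast-like cells had 20.9, 2.75 and 9.35 CPM. Their dpc16 value was 0.132 times that of NP, on 7 NP UMIs, and fell short under 3 alternatives. Cluster 17 of that class had 103, 6.36 and 39.9 CPM.

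Cox7a1, the isoform of heart and muscle, was at 29.8, 3.73 and 40.5 CPM in fibroblast-like cells, low in dpc16 and at like levels in NP and dpp42. The dpc16 ratio was 0.125 (0.0553 to 0.301), on 10 NP UMIs. In cluster 23 it was at 105, 13.3 and 93.3 CPM, on 7, 6 and 13 UMIs. Cox6b2, known from testis, was at 38.8, 21 and 18.7 CPM in fibroblast-like and 7.90, 7.10 and 9.11 CPM in keratinocyte-like cells. Fibroblast-like cluster 25 held it at 146, 171 and 164 CPM and the cycling keratinocyte-like cluster 4 at 31.3, 32.3 and 32.6 CPM, at like levels in all libraries.

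Ndufa4l2 was split by class as well as by library. Sebocyte-like cells had 5.79, 4.18 and 17.3 CPM, levels at which RNA set free from other cells cannot be separated, against the 762, 220 and 996 CPM of keratinocyte-like cells and 221, 287 and 548 CPM of fibroblast-like cells. Within keratinocyte-like cells the basal cluster 5 had 981, 518 and 1471 CPM and the spinous clusters 9 and 1 had 1049, 332 and 1419 CPM and 798, 261 and 1279 CPM, the same order of libraries in each. Fibroblast-like clusters 23 and 17 had 255, 421 and 804 CPM and 165, 263 and 506 CPM, so that dpc16 lay between NP and dpp42 there. In dpc16, then, the gene was below NP in keratinocyte-like and above it in fibroblast-like cells, where the ratio did not pass the size rule.

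**Figure D4:**
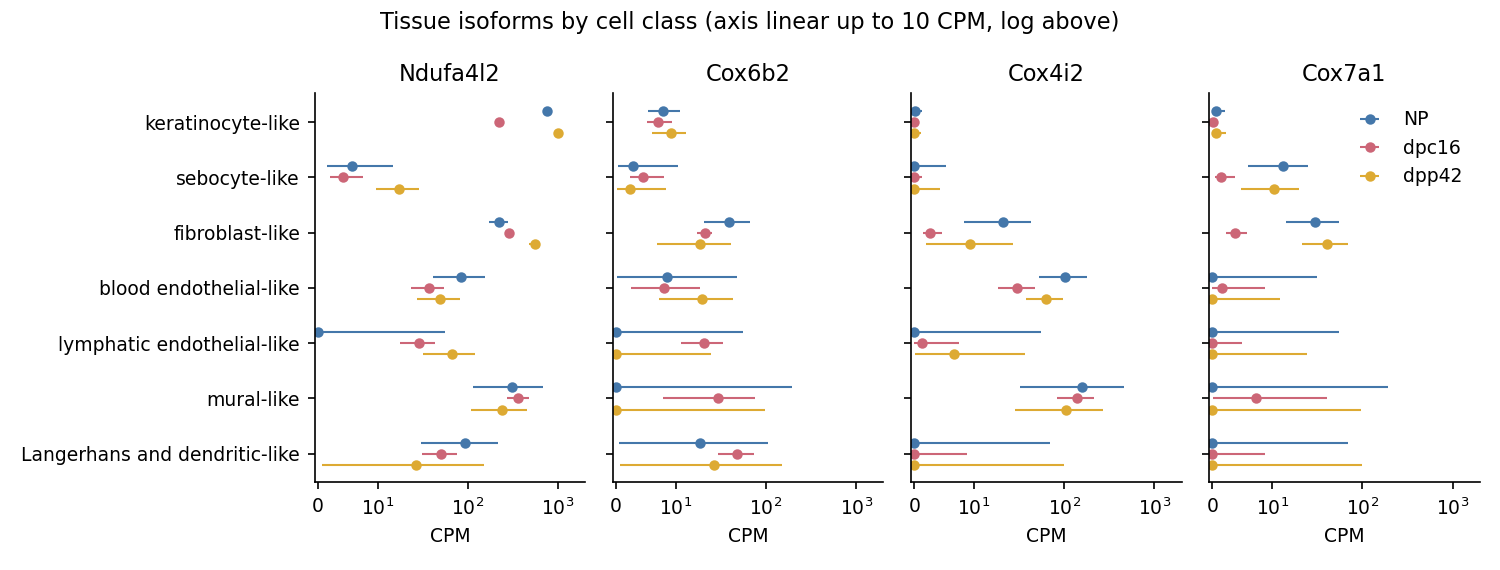
CPM of Ndufa4l2, Cox6b2, Cox4i2 and Cox7a1 by cell class and library (axis linear to 10 CPM and logarithmic above, lines for 95% Poisson intervals). Symbols are filled for all classes, also those of under 20 cells. Ndufa4l2 in keratinocyte-like cells lies at 762, 220 and 996 CPM in NP, dpc16 and dpp42 and at 4.18 to 17.3 CPM in sebocyte-like cells, and Cox4i2 is highest in mural-like and blood endothelial-like cells.

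Cox7a2l was high in dpc16 in most classes and clusters. It was at 405, 635 and 445 CPM in keratinocyte-like cells, 502, 669 and 490 CPM in sebocyte-like cells, 265, 519 and 268 CPM in fibroblast-like cells and 558, 787 and 538 CPM in blood endothelial-like cells. The dpc16 value was the highest in all 4 classes, while NP and dpp42 lay close together. Its ratio to NP was 1.57 (1.48 to 1.66) in keratinocyte-like and 1.96 (1.58 to 2.44) in fibroblast-like cells, and dpc16 was above both other libraries in 19 of the 21 clusters. With clusters weighted equally, the fibroblast-like ratio fell short of the size rule.

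Complex V held members of both kinds. Atp5b, the catalytic beta subunit gene, was at 1158 CPM in NP and 1801 CPM in dpc16 sebocyte-like cells (1.56 times) and at 188 and 295 CPM in fibroblast-like cells (1.57 times). In keratinocyte-like cells it was at 412 and 610 CPM, 1.48 times (1.4 to 1.57), just short of the size rule, which it passed under 5 alternatives. Atp5b was above both other libraries in dpc16 in 18 of the 21 clusters. Atp5k, an accessory subunit gene of the membrane part, was lower in dpc16 keratinocyte-like cells, at 251 against 395 CPM (0.635 times).

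Atp5g1, Atp5g2 and Atp5g3 encode 1 and the same mature subunit c, the rotor ring, from 3 genes. In keratinocyte-like cells of NP, dpc16 and dpp42 they were at 455, 377 and 399 CPM, 539, 557 and 494 CPM, and 320, 169 and 295 CPM. Only Atp5g3 passed the size rule, in dpc16 (0.527 times, 0.487 to 0.571). In fibroblast-like cells they were at 328, 214 and 209 CPM, 310, 338 and 299 CPM, and 206, 129 and 243 CPM. There Atp5g1 and Atp5g3 were lower in dpc16, and Atp5g1 also in dpp42 (0.637 times, 0.463 to 0.871). Atp5g2 was at like levels in all libraries of both classes, and Atp5g3 was below both others in dpc16 in 20 of the 21 clusters, as was Atp5e, the epsilon subunit gene.

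**Figure D5:**
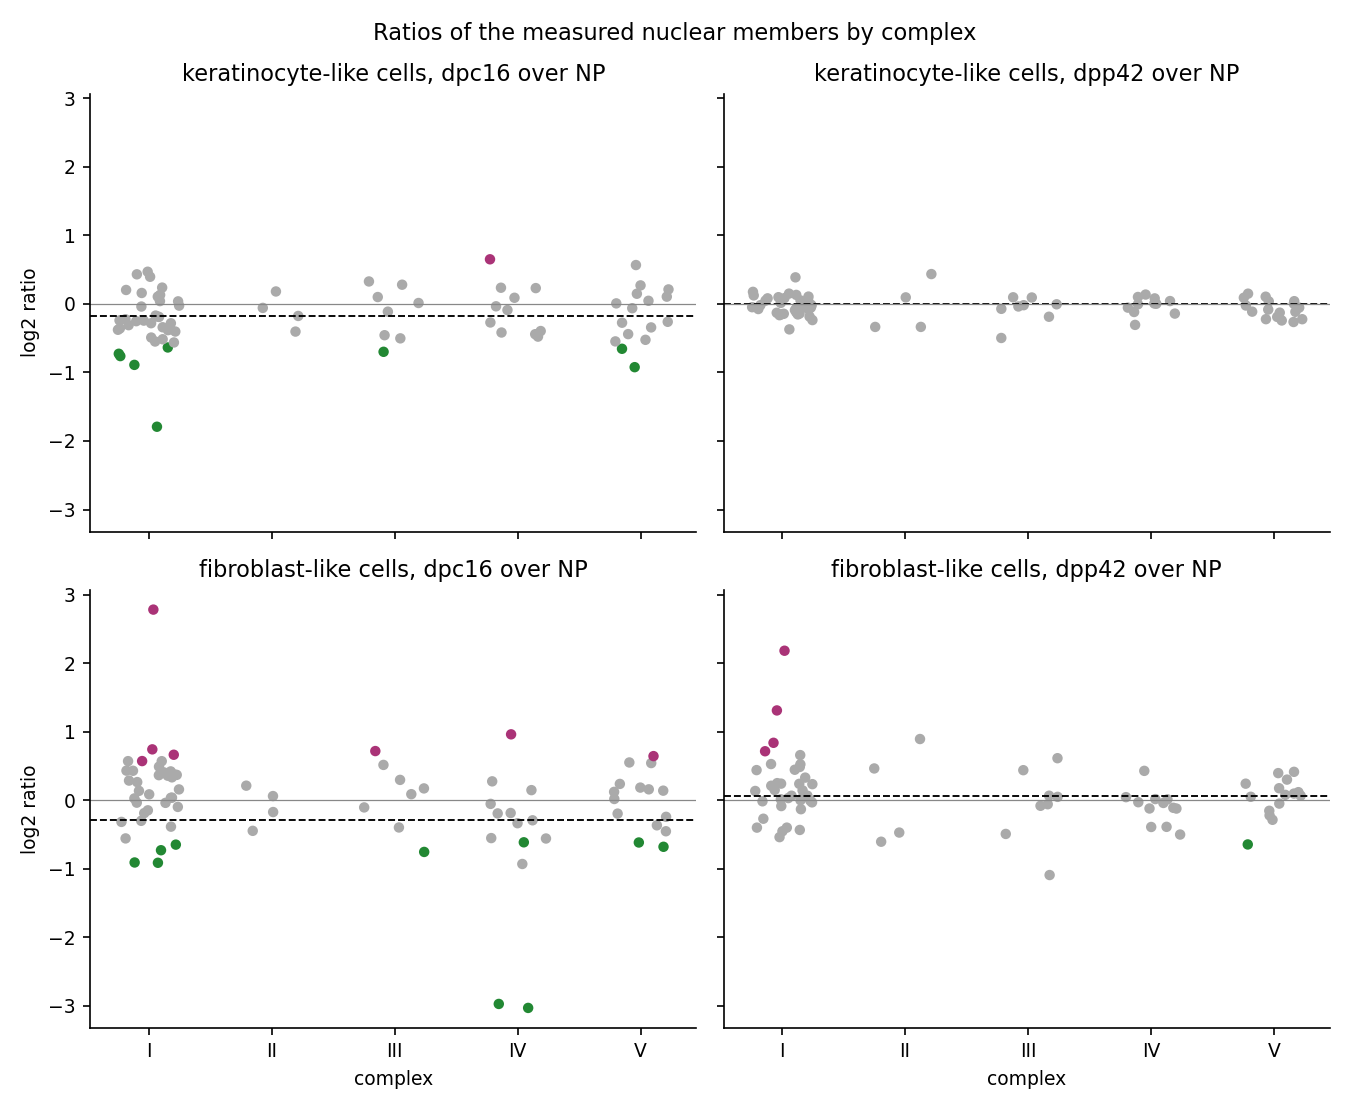
Log2 ratio to NP of each measured nuclear member, by complex, in keratinocyte-like and fibroblast-like cells of dpc16 and dpp42 (purple: higher by the size rule, green: lower, grey: neither, dashed line: median of all measured genes). In dpc16 keratinocyte-like cells 1 point is higher and 8 are lower, in dpc16 fibroblast-like cells 7 and 10, and in dpp42 0 and 0, and 4 and 1.

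Other genes of the mitochondrion were counted in the same comparisons, where 8.22% of all genes were higher and 22.2% lower in dpc16 keratinocyte-like cells, and 6.73 and 17.8% in dpc16 fibroblast-like cells. Of mitochondrial ribosomal protein genes, 3 of 74 measured were higher and 3 lower in dpc16 keratinocyte-like cells, and 6 of 70 higher and 0 lower in dpc16 fibroblast-like cells, a share near that of all genes. Among them were Mrpl40, Mrps12, Mrps6 and Mrpl34, on 3, 8, 6 and 7 NP UMIs. Of assembly factors, 1 of 29 was higher and 6 lower in keratinocyte-like cells and 2 of 24 higher and 1 lower in fibroblast-like cells. Cox17, a copper carrier for complex IV, was lower in both, at 70.1 against 162 CPM and 53.4 against 122 CPM. Of chain proteins that the symbol pattern leaves out, 0 of 11 were higher and 2 lower in keratinocyte-like and 1 and 3 of 11 in fibroblast-like cells. Usmg5, a small ATP synthase subunit gene, was at 198 against 433 CPM in the first class and 161 against 435 CPM in the second, and Higd1a, a low-oxygen gene of complex IV, at 237 against 510 CPM and 94.4 against 212 CPM.

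Regulators of the chain, the nuclear factors and coactivators that act on its promoters, were lower in dpc16 fibroblast-like cells in 7 of 13 and higher in 0, against 1 and 0 of 13 in keratinocyte-like cells. Gabpa, which reads the CCGGAAGT core shown for Uqcr11, was at 0.540 times NP in keratinocyte-like and 0.333 times in fibroblast-like cells. Pprc1, a coactivator, was at 0.176 times in fibroblast-like cells. In dpc16 fibroblast-like cells the summed nuclear members were at 0.953 times NP (interval 0.930 to 0.977). Their median log2 ratio, given above, lay on the other side of NP. A link between these regulators and the members was not tested. Of genes for the mitochondrial genome and its RNA, 0 of 16 were higher and 2 lower in keratinocyte-like cells, among them Lrpprc, which stabilises mitochondrial messages, at 0.381 times. Of citric acid cycle genes 2 of 18 were higher and 0 lower there, Idh3g at 1.96 times and Fh1 at 1.57 times. In dpp42 keratinocyte-like cells 0 of 13 regulators and 0 of 72 ribosomal protein genes differed either way (4.82 and 3.01% of all genes).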

How the data were processed

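Single dermal cells were captured on a 10x Chromium with version 2 3′ chemistry, per the labels' protocols. Whole skin without its subcutaneous fat had been held in 0.25% trypsin for 30 min and the cells passed through 40 and 20 µm filters. Per the submitters' processing notes, Cell Ranger 2.2.0 and mm10 (GRCm38) were used. Which annotation release was counted and how cells were called is not given in the sources used here. Per gene and barcode, the UMI counts were deposited by the authors as whole numbers, with no normalization. The matrices hold 1330, 4122 and 1196 barcodes and 6031814, 21679047 and 5794940 UMIs for NP, dpc16 and dpp42. Against 1289, 3650 and 1081 cells stated by the submitters, 1289, 3652 and 1081 were kept here.

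Clustering used scanpy 1.11.5 on counts scaled to 10000 per cell and log1p. The 2000 variable genes excluded the members and all mitochondrial genes. Scaled values were capped at 10, a graph of 15 neighbours was built on 30 principal components, and the Leiden method of igraph 0.11.9 ran for 2 iterations at resolution 1 (seed 0). Scrublet marked 1, 2 and 1 cells, under 0.5%, and was not used. Clusters were named from 17 marker lists by at least 3 markers found in 10% of their cells. The level had to exceed 1.4 times the mean of the lower-expressing clusters, with 20 CPM added. A cluster also stayed without a class when its 10 leading genes held more markers of another list than of its own. Clusters 2 and 12, led by haemoglobin genes, had too few markers, and cluster 13 fell under the second rule. These 3 stayed without a class (127, 664 and 139 cells). UMIs were summed by class and library. CPM has exact Poisson and ratios have exact conditional binomial 95% intervals, which cover counting error only. Genes count as measured from 20 UMIs over both libraries and 10 CPM in one. Log2 ratios have 0.5 UMI added. There was 1 library per group and therefore no test. The genes named are those of at least 50 CPM with the 5 highest and 5 lowest ratios of each comparison, all genes past the size rule, the isoforms, and members chosen after their values were seen. One result on a single member is not reported here. The intervals and the size rule were checked on simulated counts. The members and the gene lists were chosen with earlier results of these data known. The scripts ran in Python 3.11.15 with pandas 2.3.3, scipy 1.17.1, numpy 2.4.6, matplotlib 3.10.9, anndata 0.12.19 and scikit-learn 1.9.0.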

Additional observations from a re-analysis of the deposited data

Results flagged for a closer look

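Barcodes with over 10% mitochondrial UMIs, which enter none of the comparisons, made up 11.1% of the dpc16 and 9.36% of the dpp42 library, against 3.01% of NP. The nuclear members took 3.78, 3.67 and 3.22% of the UMIs outside the mitochondrial genome in these barcodes of NP, dpc16 and dpp42, against 3.01, 2.63 and 3.06% in kept cells.

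The summed level of the mt-encoded members in dpc16 was 1.12 times that of NP in keratinocyte-like and also 1.12 times in sebocyte-like cells, but 0.974 times in fibroblast-like cells, so that the classes lay on opposite sides of NP. With median-of-ratios scaling the fibroblast-like value was 1.15, on the same side as the others. The summed level of the nuclear members in dpp42 was 0.943 times that of NP in sebocyte-like and 1.04 times in fibroblast-like cells. The latter was 0.999 with at most 5% mitochondrial UMIs, 0.967 with shared clusters weighted equally and 0.993 with median-of-ratios scaling. With 1 library per group, neither difference between classes was tested.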

How the results depend on the processing

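No paired analysis was possible because each group has 1 library. Alternatives chosen after seeing the data were the clusters of contested class added, the lowest keratinocyte-like cluster left out, and mt-Atp8, mt-Nd4l and mt-Nd6 left out. The cause of the changes below was not tested, apart from the count rule, whose construction sets it. Sebocyte-like over fibroblast-like cells, the nuclear level had a geometric mean over the libraries of 2.68 and moved by less than the spread of 2.53 to 2.78 in each alternative.

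The mt-to-nuclear ratio of dpc16 keratinocyte-like cells (1.27 times NP) was 1.16 with at most 5% mitochondrial UMIs, 1.39 with no limit, 1.35 at resolution 2, 1.29 with the members left in the clustering, 1.44 with classes from each cell's own markers, 1.29 with each cell weighted equally, 1.35 with shared clusters weighted equally, 1.30 thinned to 1000 UMIs, 1.47 with contested clusters added, 1.24 without the lowest cluster and 1.31 without the 3 mt-encoded genes. For dpp42 keratinocyte-like cells (1.23) it was 1.10 at 5%, 1.31 with no limit, 1.27 with each cell equal and 1.27 thinned. For dpc16 fibroblast-like cells (1.02) it was 0.972 with the members in the clustering, 0.978 with own markers and 1.08 with shared clusters. For dpp42 fibroblast-like cells (1.41) it was 1.28 at 5%, 1.34 with no limit, 1.34 with the members in the clustering, 1.33 with own markers and 1.32 thinned.

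The count of nuclear members higher in dpc16 keratinocyte-like cells (1) was 2 with own markers, each cell equal or contested clusters, 4 thinned or with median-of-ratios scaling, 6 under a laxer size rule (a ratio of 5 to 4) and 0 at a ratio of 2. The count lower (8) was 15 thinned, 28 under the laxer rule, 1 at 2 and 4 with median of ratios. In dpp42 keratinocyte-like cells (0 and 0) 1 was higher with own markers, each cell equal or thinned and 2 under the laxer rule, and 1 was lower with each cell equal, 2 thinned and 4 under the laxer rule. In dpc16 fibroblast-like cells the count higher (7) was 11 at 5% or with own markers, 2 with shared clusters, 4 thinned, 14 under the laxer rule, 1 at 2 and 19 with median of ratios, and the count lower (10) was 6 thinned, 16 under the laxer rule, 2 at 2 and 4 with median of ratios. In dpp42 fibroblast-like cells the count higher (4) was 1 at 5%, 2 with shared clusters or at a ratio of 2 and 7 under the laxer rule. The count lower (1) was 2 at 5%, with the members in the clustering, own markers or each cell equal, 4 with shared clusters, 3 under the laxer rule and 0 thinned or at a ratio of 2.

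Sums that changed sides of NP were the mt-encoded (1.15) and nuclear (1.12) sums of dpc16 fibroblast-like cells with median-of-ratios scaling, the nuclear sum of dpp42 fibroblast-like cells at 5% (0.999), with shared clusters (0.967) and with median of ratios (0.993), and the nuclear sum of all kept dpp42 cells at 5% (0.980). Of the values of single genes, 2161 stayed on their side of the size rule, 71 came past it and 92 fell short. Few NP UMIs limit single genes of the fibroblast-like class: Ndufa9 has 1 and Ndufs1 has 4 there. The spread between animals was not measured.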
